A study of Mus musculus with 18 samples.

Results

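The transcripts of p53 (*Trp53*) and of 7 genes that p53 is known to activate (*Cdkn1a*, *Mdm2*, *Ccng1*, *Trp53inp1*, *Plk2*, *Btg2* and *Gdf15*) were followed through 6 conditions of a mouse macrophage line. The 8 genes were taken by symbol, each being the gene whose name in the count table equals one of these symbols, and they are 8 of the 56748 genes listed. RNA sequencing of RAW 264.7 cells, an immortalized macrophage line that arose in a virus-induced mouse tumour, gave 18 libraries, 3 for each condition. The study asks how TBHQ (tert-butylhydroquinone, a food antioxidant that activates the transcription factor Nrf2) alters the response of macrophages to a bacterial and a viral stimulus. Control cells were untreated, and TBHQ cells received 5 µM TBHQ for 4 h. The paper dissolved TBHQ in DMSO and names no solvent control for these libraries, so TBHQ and its solvent cannot be told apart. LPS cells received 0.1 µg/mL of lipopolysaccharide, a bacterial cell wall component, for 12 h. PIC cells received 20 µg/mL of poly(I:C), a double-stranded RNA that imitates a virus, for 12 h. LPS + TBHQ and PIC + TBHQ cells were pre-treated with TBHQ for 4 h and then given the stimulus for 12 h. Every library came from the same cell line, marked WT in the column names of the deposited files, with no primary cells beside it. Cells with TBHQ alone were harvested at 4 h, and no library holds cells kept longer with TBHQ and no stimulus. The labels give no harvest time for the control, which the study's scheme lists with the 12 h stimulations, so TBHQ and harvest time cannot be told apart in the comparison of TBHQ with control. The methods call the libraries of a condition biological replicates, and whether these were wells of a single experiment or separate experiments is not stated, so each p-value measures the spread between samples as labelled.

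p53 is a transcription factor that answers DNA damage and other stress by switching on genes that halt the cell cycle, repair DNA or lead to cell death. Its amount is set mainly at the level of the protein: *Mdm2*, itself a p53 target, encodes the ubiquitin ligase that marks p53 for degradation and so closes a feedback loop. Several p53 targets, *Cdkn1a*, *Plk2* and *Btg2* among them, are also immediate responders to other signals, and in macrophages bacterial products are known to stop proliferation.

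The total count per library ranged from 14423390 to 18851626, and its median was 15742337. At these depths 3 counts, taken as the floor of detection, correspond to 0.159 to 0.208 CPM (counts scaled by the library total), which covers counting error only. Levels are given below in FPKM as deposited (fragment counts scaled by gene length, library total and a constant for each library). They are given with the mean ± SD of 3 libraries and allow genes of different length to be compared. The constant was 0.943 to 0.951 in control and 1.11 to 1.12 in PIC libraries, so FPKM are not scaled by totals alone. Changes are log2 fold changes (log2FC) ± SE from the raw counts, tested with edgeR's quasi-likelihood test and Benjamini-Hochberg adjustment over 13691 genes, and a gene was called at an FDR below 0.05. All 8 genes passed the filter on low counts.

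The label of the cells was checked against marker genes. All 8 macrophage markers were expressed, the most abundant being *Lyz2* (lysozyme) with 61055 to 99994 counts per library. Their summed level was 5605, 5694 and 5351 FPKM in the control libraries, 5046, 5100 and 5016 with TBHQ, 4662, 4534 and 4747 with LPS, and 4401, 4456 and 4570 with PIC. LPS + TBHQ libraries reached 5313, 5530 and 5366 FPKM, and PIC + TBHQ libraries 5096, 4841 and 5217 FPKM. The sum was thus lowest with LPS and PIC, and its part in the results was not tested. Among markers of fibroblasts, epithelium, T cells, endothelium, neutrophils and mast cells, *Cdh1*, *Cd3e*, *Ly6g* and *Kit* had 0 counts in all 18 libraries. *Col1a1*, *Epcam*, *Cdh5* and *Pdgfra* had at most 2, 1, 7 and 8 counts. *S100a8*, a calcium-binding protein of neutrophils that macrophages can also make, had 3 to 67 counts and was higher with LPS (log2FC 2.05) and PIC (2.82). RNA from bulk cultures cannot tell fewer cells expressing a gene from less RNA of it per cell.

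*Trp53*, the gene of p53 itself (ENSMUSG00000059552, chromosome 11, 69471185 to 69482699 on the plus strand in the positions of the deposited files), was expressed within a narrow range. Its level was 51.0, 47.7 and 50.1 FPKM in the control libraries (49.6 ± 1.72, SD, n = 3) and 51.2, 49.5 and 52.0 FPKM with TBHQ (50.9 ± 1.29). With LPS it was 39.9, 38.6 and 41.2 FPKM (39.9 ± 1.32) and with PIC 41.8, 41.9 and 40.3 FPKM (41.4 ± 0.883). After TBHQ pre-treatment it was 42.9, 41.8 and 44.1 FPKM with LPS (42.9 ± 1.19) and 41.2, 43.1 and 42.7 FPKM with PIC (42.3 ± 0.995). Each of the 12 stimulated libraries lay below each of the 6 unstimulated ones, while neighbouring conditions within each of these blocks overlapped. *Trp53* fell with LPS (log2FC -0.32 ± 0.04, FDR = 8.8e-09) and with PIC (-0.28 ± 0.04, FDR = 9.6e-08). The change with PIC was -0.50 when libraries were scaled by their totals instead of by TMM. TBHQ alone left a log2FC of 0.03 ± 0.04 (FDR = 0.56). In LPS + TBHQ against LPS the estimate was 0.10 ± 0.04, just past the threshold (FDR = 0.046). That call was lost when any of 10 single libraries was left out: control 3, LPS 1 or 2, TBHQ 1 or 3, LPS + TBHQ 1 or 3, or PIC + TBHQ 1, 2 or 3, with a log2FC of 0.08 to 0.11 and an FDR of 0.05 to 0.19. It was also lost when edgeR was fitted on the compared conditions alone (FDR = 0.086). In PIC + TBHQ against PIC the log2FC of *Trp53* was 0.04 ± 0.04 (FDR = 0.43), and 0.11 (FDR = 0.019) with total library size. A non-coding gene on the opposite strand (ENSMUSG00000121121) overlaps *Trp53* by 324 bases with 8 to 35 counts per library. Of the 50-base words of *Trp53* transcripts, 3.88% also occur in another gene (164 of 4230), and the *Trp53* pseudogene held 154 matches.

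*Mdm2* (ENSMUSG00000020184, chromosome 10, 117524780 to 117546663, minus strand), the ubiquitin ligase of the feedback loop, separated all 6 conditions. The control libraries held 34.1, 33.3 and 33.7 FPKM (33.7 ± 0.390) and the TBHQ libraries 39.9, 40.0 and 41.6 FPKM (40.5 ± 0.978). LPS libraries held 90.6, 87.3 and 86.3 FPKM (88.1 ± 2.23) and PIC libraries 145, 137 and 132 FPKM (138 ± 6.49). With TBHQ first, the values were 54.1, 53.5 and 52.3 FPKM in LPS + TBHQ (53.3 ± 0.893) and 74.8, 73.1 and 75.1 FPKM in PIC + TBHQ (74.4 ± 1.08). From low to high the order was control, TBHQ, LPS + TBHQ, PIC + TBHQ, LPS and PIC, and no 2 neighbours overlapped. *Mdm2* rose with LPS (log2FC 1.38 ± 0.04, FDR = 4.6e-27) and more with PIC (2.02 ± 0.04, FDR = 1.9e-32), and PIC exceeded LPS by 0.64 ± 0.03 (FDR = 4.3e-17). TBHQ pre-treatment lowered the stimulated level, by a log2FC of -0.73 ± 0.04 with LPS (FDR = 1.9e-18) and -0.88 ± 0.03 with PIC (FDR = 7.3e-21). TBHQ alone went the other way, with a small increase of 0.26 ± 0.04 (FDR = 6.1e-07).

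*Cdkn1a* (ENSMUSG00000023067, chromosome 17, 29309950 to 29319701, plus strand) encodes p21, the inhibitor of cyclin-dependent kinases through which p53 arrests the cell cycle. The 3 control libraries stood at 43.8, 38.5 and 38.9 FPKM (40.4 ± 2.94) and the TBHQ libraries at 52.1, 56.0 and 54.4 FPKM (54.2 ± 1.96). LPS brought 109, 101 and 108 FPKM (106 ± 4.20) and PIC 142, 137 and 142 FPKM (140.5 ± 3.15). In LPS + TBHQ the values were 56.3, 53.1 and 55.4 FPKM (54.9 ± 1.60), and in PIC + TBHQ 69.5, 67.5 and 64.5 FPKM (67.2 ± 2.51). LPS + TBHQ libraries thus overlapped those with TBHQ alone, PIC + TBHQ lay just above them, and LPS and PIC alone stood apart at the top. LPS raised *Cdkn1a* by a log2FC of 1.38 ± 0.04 (FDR = 1.2e-24) and PIC by 1.78 ± 0.04 (FDR = 2.1e-28), with PIC above LPS by 0.40 ± 0.04 (FDR = 1.3e-09). TBHQ pre-treatment took it down by -0.95 ± 0.04 with LPS (FDR = 2.5e-19) and -1.05 ± 0.04 with PIC (FDR = 1.3e-20), to 0.518 and 0.482 of the level without TBHQ. Against the control, LPS + TBHQ stood higher by 0.43 ± 0.04 and PIC + TBHQ by 0.73 ± 0.04. As with *Mdm2*, TBHQ alone raised the gene, by 0.42 ± 0.04 (FDR = 1.7e-09). A gene of unproven status on the opposite strand (1700023B13Rik) overlaps *Cdkn1a* by 1046 bases and had 7 to 44 counts, and the libraries were made strand-specific, while whether the fragments were also counted by strand is not stated.

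**Figure D1:**
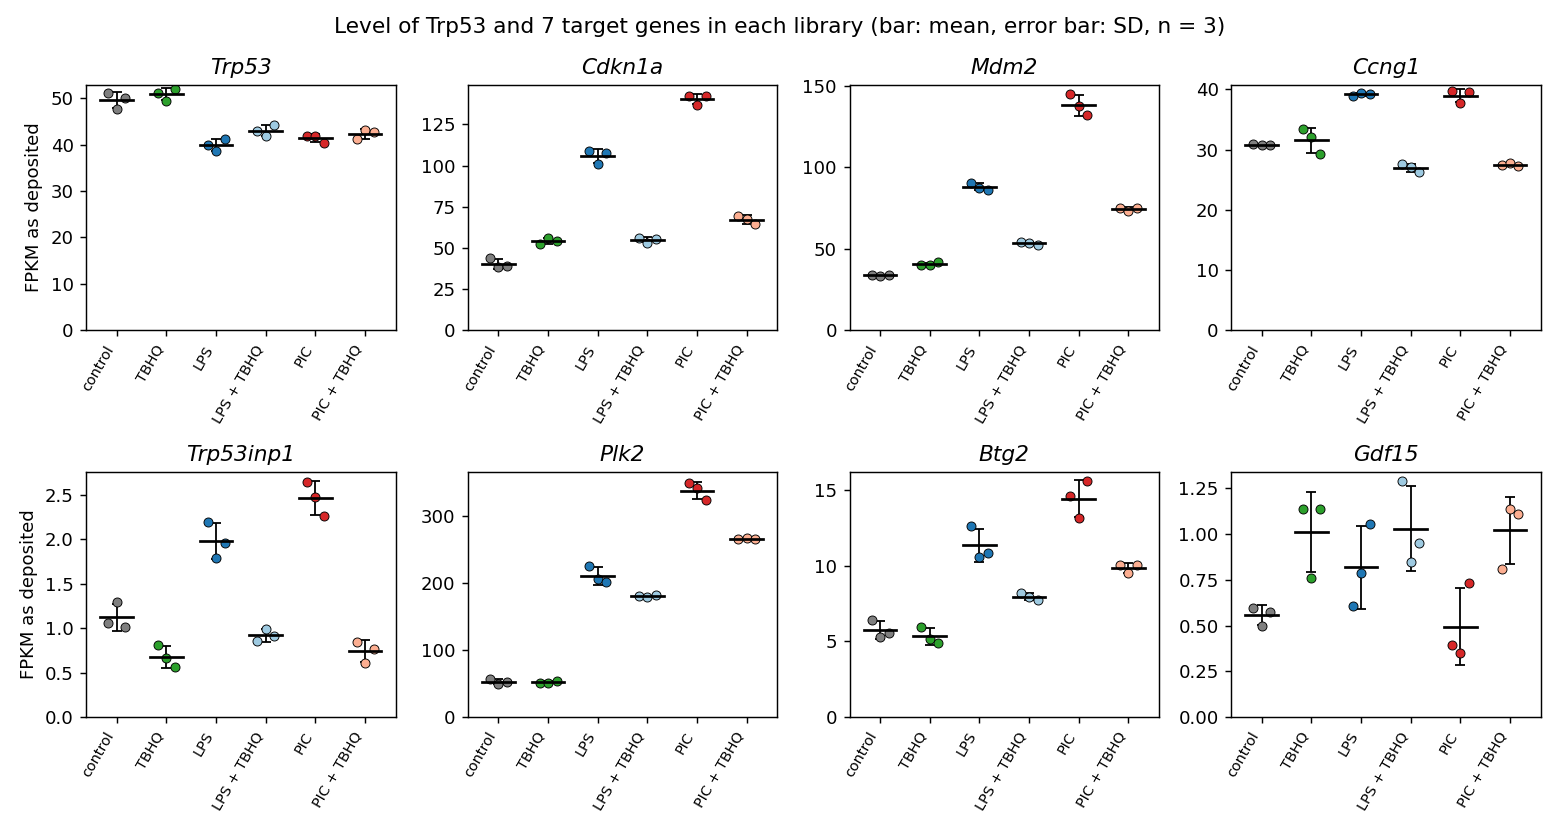
Level of *Trp53* and 7 target genes in each library, in FPKM on linear axes that start at 0, for control, TBHQ, LPS, LPS + TBHQ, PIC and PIC + TBHQ (points, libraries; bar, mean; error bar, SD, n = 3). For *Cdkn1a*, *Mdm2*, *Trp53inp1*, *Plk2* and *Btg2* the PIC libraries are the highest, LPS + TBHQ lies below LPS and PIC + TBHQ below PIC, for *Cdkn1a* at 54.9 and 67.2 against 106 and 140.5 FPKM on average.

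*Ccng1* (ENSMUSG00000020326, chromosome 11, 40639379 to 40646138, minus strand) encodes cyclin G1, which recruits a phosphatase to the Mdm2 protein. It rose by a small amount with each stimulus and ended below the control with TBHQ pre-treatment. Control libraries had 30.9, 30.8 and 30.7 FPKM (30.8 ± 0.0954), against 38.8, 39.4 and 39.3 FPKM with LPS (39.2 ± 0.294) and 39.6, 37.7 and 39.5 FPKM with PIC (38.9 ± 1.11). LPS + TBHQ gave 27.6, 27.1 and 26.3 FPKM (27.0 ± 0.663), PIC + TBHQ 27.5, 27.8 and 27.3 FPKM (27.5 ± 0.229), and TBHQ alone 33.4, 32.0 and 29.3 FPKM (31.6 ± 2.09). The libraries thus form a bottom, a middle and a top level: the pre-treated stimulated libraries at the bottom, control and TBHQ overlapping in the middle, and LPS and PIC overlapping at the top. The rise was 0.34 ± 0.04 with LPS (FDR = 2.7e-08) and 0.32 ± 0.04 with PIC (FDR = 4.9e-08), the latter 0.10 with total library size normalization. TBHQ pre-treatment lowered *Ccng1* by a log2FC of -0.54 ± 0.04 with LPS (FDR = 2.3e-12) and -0.49 ± 0.04 with PIC (FDR = 2.5e-11). Relative to the control these cells stood at -0.20 ± 0.04 (FDR = 0.00024) and -0.17 ± 0.04 (FDR = 0.0014). Under other settings the latter value, with PIC, reached -0.32. With TBHQ alone the log2FC was 0.03 ± 0.04 (FDR = 0.62). PIC and LPS differed by -0.02 ± 0.04 (FDR = 0.81), or by -0.15 (FDR = 0.0067) with total library size.

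*Btg2* (ENSMUSG00000020423, chromosome 1, 134002908 to 134006858, minus strand) encodes an antiproliferative protein that speeds the shortening of mRNA tails, and it was expressed at a low level. Its values were 6.41, 5.28 and 5.57 FPKM in the control (5.75 ± 0.589), 12.6, 10.6 and 10.9 FPKM with LPS (11.4 ± 1.10) and 14.6, 13.1 and 15.6 FPKM with PIC (14.4 ± 1.23). They were 5.95, 5.13 and 4.92 FPKM with TBHQ (5.33 ± 0.542), 8.20, 7.92 and 7.73 FPKM with LPS + TBHQ (7.95 ± 0.235) and 10.1, 9.49 and 10.04 FPKM with PIC + TBHQ (9.87 ± 0.324). Control and TBHQ overlapped, and above them LPS + TBHQ, PIC + TBHQ, LPS and PIC followed without overlap. *Btg2* rose by 0.97 ± 0.09 with LPS (FDR = 1.4e-11) and 1.32 ± 0.09 with PIC (FDR = 1.4e-15). The decrease with TBHQ pre-treatment was similar in size under both stimuli, -0.52 ± 0.08 (FDR = 1.2e-05) and -0.54 ± 0.08 (FDR = 2e-06). PIC lay above LPS by 0.34 ± 0.08 (FDR = 0.0013), or by 0.21 with total library size. TBHQ alone gave -0.11 ± 0.10 (FDR = 0.44).

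*Plk2* (ENSMUSG00000021701, chromosome 13, 110531580 to 110537378, plus strand), a polo-like kinase and early response gene, was the most abundant of the 8 in stimulated cells. The control held 56.7, 49.9 and 51.8 FPKM (52.8 ± 3.52) and TBHQ 51.0, 50.2 and 53.8 FPKM (51.7 ± 1.90), which overlap. LPS reached 225, 206 and 201 FPKM (211 ± 12.8) and PIC 349.6, 342 and 324 FPKM (338 ± 13.1). The pre-treated cells had 180.3, 179 and 182 FPKM in LPS + TBHQ (180.3 ± 1.23) and 265, 267 and 266 FPKM in PIC + TBHQ (266 ± 0.932). Unlike for *Mdm2* and *Cdkn1a*, the order followed the stimulus first, with both PIC conditions above both LPS conditions and no overlap between neighbours from LPS + TBHQ upward. Its increases were the largest of the 8 genes, 1.99 ± 0.04 with LPS (3.97-fold, FDR = 5.7e-30) and 2.66 ± 0.04 with PIC (6.34-fold, FDR = 4e-34). TBHQ pre-treatment lowered it by -0.23 ± 0.04 with LPS (FDR = 2.7e-05) and -0.34 ± 0.04 with PIC (FDR = 1.2e-08), the smallest decreases among the 6 genes that fell. TBHQ alone left it at -0.03 ± 0.04 (FDR = 0.61).

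*Trp53inp1* (ENSMUSG00000028211, chromosome 4, 11156431 to 11174379, plus strand) encodes a stress-induced protein that acts in autophagy and in p53-dependent cell death. It was scarce, with 56 to 248 counts per library. The control libraries held 1.06, 1.29 and 1.01 FPKM (1.12 ± 0.148), LPS 2.19, 1.78 and 1.96 FPKM (1.98 ± 0.206) and PIC 2.65, 2.48 and 2.26 FPKM (2.46 ± 0.193). TBHQ alone held 0.806, 0.661 and 0.562 FPKM (0.676 ± 0.123), LPS + TBHQ 0.850, 0.985 and 0.915 FPKM (0.917 ± 0.0679) and PIC + TBHQ 0.845, 0.609 and 0.770 FPKM (0.741 ± 0.121). All 9 libraries with TBHQ lay below all 9 without it. It was the 1 gene of the 8 to be called lower with TBHQ alone (log2FC -0.73 ± 0.15, FDR = 0.00033). LPS raised it by 0.81 ± 0.13 (FDR = 4e-06) and PIC by 1.12 ± 0.13 (FDR = 3.3e-09). Its decreases with TBHQ pre-treatment were the largest of the 8 genes in edgeR, -1.11 ± 0.14 with LPS (FDR = 6.2e-08) and -1.71 ± 0.14 with PIC (FDR = 3.9e-12). At this level a pseudocount of 1 FPKM weighs heavily: limma on log2(FPKM + 1) gave -0.63 and -0.99 for the latter pair, and between -0.34 and 0.71 for the changes with TBHQ, LPS and PIC alone. PIC against LPS stood at 0.30 ± 0.12 (FDR = 0.065), and this passed the threshold without LPS 1 (0.38, FDR = 0.042) or PIC 3 (0.37, FDR = 0.045), with edgeR on the compared conditions only (0.30, FDR just under 0.05) and with limma on log2(FPKM + 1) (0.22, FDR = 0.046).

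*Gdf15* (ENSMUSG00000038508, chromosome 8, 71082043 to 71085106, minus strand) encodes a secreted stress cytokine of the TGF-β family, and it was near the limit of what these libraries can measure. Its counts were 17, 15 and 18 in the control, 16, 21 and 28 with LPS, and 10, 9 and 23 with PIC. With TBHQ they were 36, 23 and 36, LPS + TBHQ libraries had 40, 26 and 31, and PIC + TBHQ libraries 23, 30 and 33. In FPKM the means were 0.557 ± 0.0529 in the control, 0.818 ± 0.226 with LPS and 0.493 ± 0.210 with PIC, against 1.01 ± 0.220, 1.03 ± 0.233 and 1.02 ± 0.184 in the corresponding conditions with TBHQ. The control libraries lay below those with TBHQ alone, while LPS overlapped LPS + TBHQ. From PIC, the lowest mean, through control, LPS, TBHQ and PIC + TBHQ to LPS + TBHQ, each condition overlapped the next in FPKM except control and LPS. *Gdf15* was called higher with TBHQ alone (log2FC 0.86 ± 0.31, FDR = 0.036) and in PIC + TBHQ against PIC (1.02 ± 0.33, FDR = 0.016). DESeq2 gave the first an FDR of 0.07, and leaving out control 1, 2 or 3 or TBHQ 1 or 3 gave 0.063, 0.11, 0.078, 0.12 and 0.12, at a log2FC of 0.77 to 0.91. The second was lost without PIC 1 (0.87, FDR = 0.081), PIC 2 (0.81, FDR = 0.095), PIC + TBHQ 2 (0.93, FDR = 0.059) or PIC + TBHQ 3 (0.94, FDR = 0.06). Limma on log2(FPKM + 1) put both at 0.37 and 0.44. LPS against control gave 0.55 ± 0.33 (FDR = 0.18), PIC against control -0.15 ± 0.36 (FDR = 0.73) and LPS + TBHQ against LPS 0.33 ± 0.30 (FDR = 0.49). Leaving out single libraries moved the first of these between 0.33 and 0.72 and the last between 0.14 and 0.55, never called. PIC against LPS was -0.70 ± 0.34 (FDR = 0.13), and -1.13 (FDR = 0.037) without PIC 3.

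Taking the genes by comparison, LPS raised 6 of the 8 (all but *Trp53* and *Gdf15*) and lowered 1, *Trp53*. Of the 13691 genes tested, 24.0% were called higher and 24.1% lower with LPS. PIC likewise raised 6 and lowered 1, against 28.6% higher and 30.1% lower over all genes. The median log2FC of the 8 genes was 0.89 with LPS and 1.22 with PIC, beside a median of -0.00 and -0.01 over all genes. Both comparisons use the same control libraries and so are not independent of each other. In PIC against LPS 4 of the 8 were higher (*Cdkn1a*, *Mdm2*, *Plk2* and *Btg2*), where 14.9% of all genes were higher and 12.8% lower, and the median was 0.32. No member was lower in edgeR with TMM normalization, where 6 of the 8 had an unadjusted p below 0.05 in either direction. *Ccng1* was called lower in edgeR with total library size (-0.15, FDR = 0.0067). With total library size normalization the median log2FC of all genes was -0.23 for PIC against control and -0.14 for PIC against LPS, so these changes hold relative to the bulk of the genes.

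After TBHQ pre-treatment 6 of the 8 genes were lower in LPS + TBHQ than in LPS (*Cdkn1a*, *Mdm2*, *Ccng1*, *Trp53inp1*, *Plk2* and *Btg2*) and 1, *Trp53*, was higher. Over all genes 12.2% were lower and 11.7% higher. In PIC + TBHQ against PIC 6 were lower and 1, *Gdf15*, was higher, beside 15.5% lower and 15.8% higher over all genes. The 8 genes had a median log2FC of -0.53 with LPS and -0.52 with PIC, against 0.00 and 0.01 over all genes. The TBHQ effect with PIC was then compared directly with that with LPS. edgeR called none of the 8 genes in this difference, 2 had an unadjusted p below 0.05 (*Mdm2* and *Trp53inp1*), and DESeq2 called 1. Over all genes 0.825% were called higher and 1.01% lower. For *Trp53inp1* the difference was -0.60 ± 0.20 (FDR = 0.12), for *Mdm2* -0.15 ± 0.05 (FDR = 0.1) and for *Cdkn1a* -0.11 ± 0.06 (FDR = 0.43). *Mdm2* was the gene that DESeq2 called (-0.17, FDR = 0.015), and edgeR called it as well without PIC 3 (-0.20, FDR = 0.018).

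TBHQ alone at 4 h raised 3 of the 8 genes (*Cdkn1a*, *Mdm2* and *Gdf15*) and lowered *Trp53inp1*, where 14.2% of all genes were higher and 14.8% lower. The median over the 8 was 0.03. Because the effect of TBHQ on *Cdkn1a* and *Mdm2* had opposite signs in resting and stimulated cells, the difference between these effects was tested, a contrast chosen after the data had been seen. With LPS, 5 of the 8 genes had a lower TBHQ effect than in resting cells (*Cdkn1a*, *Mdm2*, *Ccng1*, *Plk2* and *Btg2*) and none a higher one in edgeR, where 5 also passed an unadjusted p below 0.05. Over all genes 9.33% were lower and 9.14% higher. With PIC 6 were lower, *Trp53inp1* in addition, beside 12.5% lower and 13.3% higher. *Cdkn1a* differed by -1.37 ± 0.06 with LPS (FDR = 1.3e-18) and -1.48 ± 0.06 with PIC (FDR = 8.9e-20), and *Mdm2* by -0.99 ± 0.05 and -1.15 ± 0.05. Some of the smaller differences lost their call without a single library. *Plk2* with LPS (-0.19 ± 0.06, FDR = 0.015) was no longer called without control 2 (-0.15), LPS 1 (-0.15) or TBHQ 3 (-0.16), nor with limma on log2(FPKM + 1) or log2(FPKM + 0.1) (-0.19 in both, FDR = 0.059 and 0.062). With PIC *Plk2* (-0.30 ± 0.06) kept its call whichever library was left out. *Btg2* with LPS (-0.41 ± 0.13, FDR = 0.022) was lost without control 2 (-0.35), control 3 (-0.38), LPS 1 (-0.33), TBHQ 1 (-0.32) or LPS + TBHQ 3 (-0.39). With PIC the call of *Btg2* was lost without TBHQ 1 (-0.34, FDR = 0.055). The 2 effects of TBHQ were also measured at different times, at 4 h in resting cells and after 4 h of TBHQ and 12 h of stimulus in stimulated cells, and time and stimulus cannot be told apart.

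**Figure D2:**
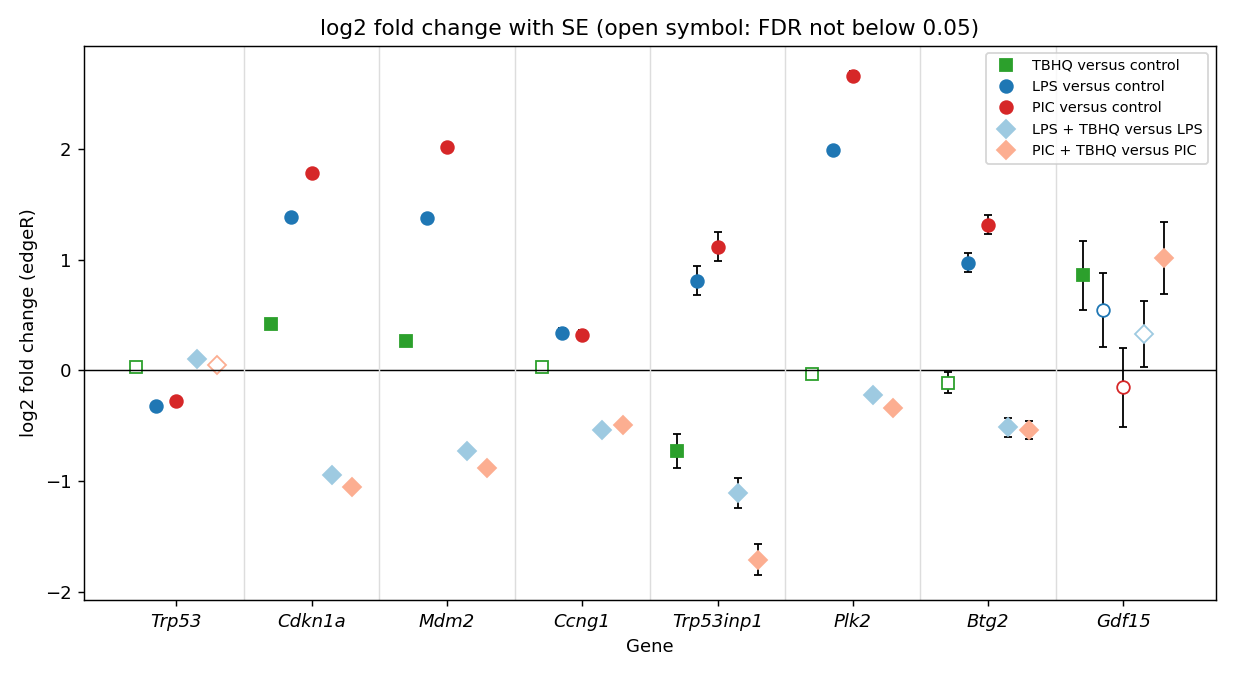
log2 fold change of each of the 8 genes (horizontal axis) in TBHQ, LPS and PIC versus control and in LPS + TBHQ versus LPS and PIC + TBHQ versus PIC (colours), with SE from edgeR; open symbols have an FDR of 0.05 or more. *Cdkn1a* and *Mdm2* rise with TBHQ alone (0.42 and 0.26) and fall when TBHQ precedes a stimulus.

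A wider list of 37 further p53 targets was examined in the same way. *Perp* had at most 2 counts in a library and *Rprm* 0 in all, and 35 were tested. LPS raised 13 of the 35 and lowered 7, with a median log2FC of 0.08, and PIC raised 12 and lowered 10, with a median of 0.02. These shares are nearer to those of all genes than the shares of the 8 genes above. Over all genes 24.0% were higher and 24.1% lower with LPS, and 28.6% higher and 30.1% lower with PIC. The largest increases were those of *Ddit4*, an inhibitor of mTOR signalling (2.77 ± 0.11 with LPS, 3.01 ± 0.11 with PIC), and *Fas*, a death receptor (1.91 ± 0.13 and 3.05 ± 0.12). *Sesn2*, a stress-induced regulator of metabolism, rose by 1.51 ± 0.05 and 1.82 ± 0.05, and *Plk3*, a polo-like kinase, by 1.43 ± 0.08 and 1.89 ± 0.08. *Bax*, a pro-apoptotic target looked up after its values were seen, had a log2FC of 0.02 ± 0.05 with LPS (FDR = 0.73) and 0.06 ± 0.05 with PIC (FDR = 0.26). PIC against LPS gave 7 higher and 7 lower, *Fas* (1.14) and *Plk3* (0.46) among the former and *Pidd1* (-0.72) and *Sesn1* (-0.51) among the latter. Over all genes 14.9% were higher and 12.8% lower in this comparison.

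With TBHQ pre-treatment 11 of these 35 targets were lower and 3 higher in LPS + TBHQ against LPS (median -0.08), and 12 were lower and 4 higher in PIC + TBHQ against PIC (median -0.14). Over all genes 12.2% were lower and 11.7% higher with LPS, and 15.5% lower and 15.8% higher with PIC. *Eda2r*, a receptor of the TNF receptor family, and *Phlda3*, an inhibitor of Akt, fell the most. *Eda2r* was measured at 0.376, 0.386 and 0.502 FPKM in the control, 1.09, 1.06 and 1.09 FPKM with LPS and 0.304, 0.276 and 0.300 FPKM with LPS + TBHQ. With PIC it had 1.26, 1.01 and 1.29 FPKM, and with PIC + TBHQ 0.243, 0.335 and 0.402 FPKM, from 22 to 129 counts per library over all conditions. Every library of LPS or PIC alone was therefore at least at 1.01 FPKM and every other one at or below 0.502 FPKM. The decrease was -1.88 ± 0.20 with LPS (FDR = 2.2e-09) and -1.85 ± 0.20 with PIC (FDR = 2e-09). *Phlda3* stood at 2.42, 2.56 and 2.09 FPKM in the control and 3.97, 3.84 and 4.53 FPKM with LPS, then at 1.42, 1.43 and 1.39 FPKM with LPS + TBHQ. The PIC libraries had 4.46, 3.37 and 3.33 FPKM and the PIC + TBHQ libraries 0.877, 1.40 and 1.60 FPKM. Pre-treated cells thus fell below the control for *Phlda3*, by -0.74 ± 0.21 with LPS (FDR = 0.0038) and -0.87 ± 0.22 with PIC (FDR = 0.00097). *Ddit4* fell by -1.38 ± 0.09 and -1.01 ± 0.09, and *Fas* by -0.74 ± 0.11 and -0.70 ± 0.09. In the difference between the TBHQ effects with PIC and LPS, edgeR and DESeq2 called 0 of the 35, and 3 had an unadjusted p below 0.05 in edgeR.

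TBHQ alone raised 5 of the 35 (*Plk3*, *Fas*, *Zmat3*, *Aen* and *Xpc*) and lowered 3, at a median of 0.02, beside 14.2% higher and 14.8% lower over all genes. *Plk3* rose by 0.80 ± 0.08 (FDR = 1.1e-09), whereas *Gadd45a*, a growth arrest gene (-0.71 ± 0.10, FDR = 1.5e-06), and the pro-apoptotic *Pmaip1* (-0.63 ± 0.08) and *Bbc3* (-0.49 ± 0.07), which encode Noxa and Puma, fell. In the contrasts of the TBHQ effect with a stimulus against that alone, 9 of the 35 were lower and 3 higher with LPS, and 13 were lower and 4 higher with PIC. Over all genes these contrasts gave 9.33% lower and 9.14% higher with LPS, and 12.5% lower and 13.3% higher with PIC. The number called with PIC dropped from 17 to 11 without TBHQ 2.

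**Figure D3:**
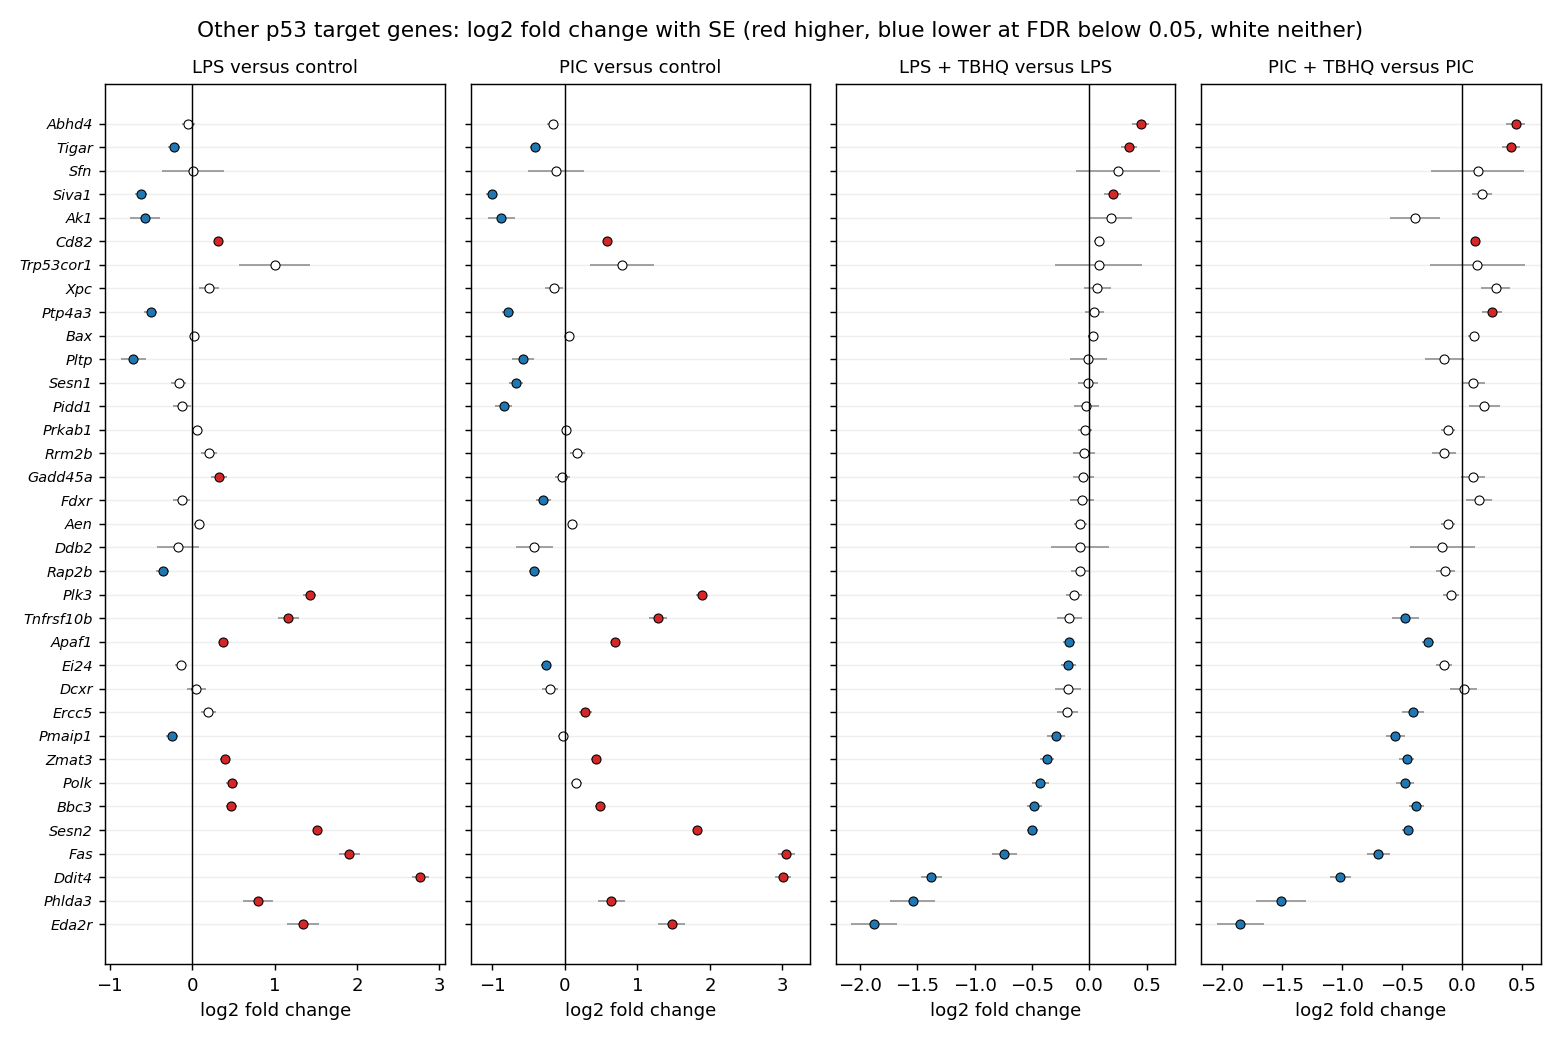
log2 fold change with SE (horizontal axes) of the 35 tested genes of the wider p53 target list (vertical axis) in LPS and PIC versus control, LPS + TBHQ versus LPS and PIC + TBHQ versus PIC; red, higher and blue, lower at an FDR below 0.05, white, neither. The strongest decreases with TBHQ pre-treatment, *Eda2r* at -1.88 and -1.85, are at the bottom.

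Genes that act on p53 were next counted. Of 24 regulators and kinases 21 were tested. *Cdkn2a* (the gene of Arf, which inhibits Mdm2) and *Trp63* had 0 counts in all libraries and *Trp73* at most 1, so they were not detectable at this depth. LPS raised 3 and lowered 9 of the 21 (median -0.17), and PIC raised 4 and lowered 11 (median -0.12), while the shares over all genes were 24.0% up and 24.1% down for LPS, and 28.6% up and 30.1% down for PIC. The checkpoint kinase gene *Chek2* fell by -0.73 ± 0.11 and -1.11 ± 0.11 and was higher again after TBHQ pre-treatment (0.43 ± 0.11 with LPS, 0.51 ± 0.12 with PIC). *Chek1* fell by -0.46 and -0.87, and *Atr*, a kinase of the replication stress response, by -0.62 and -0.86. *Hipk2*, a kinase that phosphorylates p53, rose by 0.64 ± 0.05 and 1.11 ± 0.05. TBHQ pre-treatment raised 1 and lowered 3 of the 21 with LPS and raised 3 and lowered 5 with PIC, while the shares over all genes were 11.7% up and 12.2% down for LPS, and 15.8% up and 15.5% down for PIC. The ribosomal protein gene *Rpl5*, whose product can bind Mdm2, was lower with TBHQ in each setting: -0.31 ± 0.04 alone, -0.30 ± 0.04 with LPS and -0.28 ± 0.04 with PIC. TBHQ alone raised 5 and lowered 2, *Crebbp* (0.30) among the former, beside 14.2% higher and 14.8% lower over all genes. *Mdm4*, the partner of Mdm2, looked up after its values were seen, had 6.24 to 6.45 FPKM on average, and its log2FC was between -0.04 and -0.01 in TBHQ, LPS and PIC against control and in each pre-treatment against its stimulus, none of them called. PIC against LPS gave 2 higher and 6 lower of the 21, beside 14.9% higher and 12.8% lower over all genes. In the difference between TBHQ effects edgeR called 0 of the 21, of which 5 had an unadjusted p below 0.05.

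Of 12 paralogs of the 8 genes 9 were tested. *Ccng2*, the relative of *Ccng1*, was called in the same directions as *Ccng1* with LPS, with PIC and in both pre-treatment comparisons, and unlike it was also lower with TBHQ alone (-0.67 ± 0.13). It was measured at 1.90, 1.80 and 2.46 FPKM in the control, 6.15, 6.06 and 5.89 FPKM with LPS and 10.6, 10.2 and 8.58 FPKM with PIC. Pre-treated cells had 2.18, 1.99 and 2.42 FPKM with LPS and 2.99, 3.57 and 2.99 FPKM with PIC. Its log2FC was 1.54 ± 0.10 with LPS and 2.23 ± 0.10 with PIC, then -1.46 ± 0.10 and -1.61 ± 0.09 with pre-treatment. *Btg1*, the relative of *Btg2*, rose by 0.72 and 1.22 and fell by 0.39 and 0.46 with pre-treatment. *Cdkn1b*, which encodes p27, was lower in both pre-treatment comparisons (-0.23 and -0.24). In all, 5 of the 9 were higher and 2 lower with LPS and with PIC, and 1 was higher and 3 lower in each pre-treatment comparison. Over all genes 24.0% went up and 24.1% down under LPS, 28.6% up and 30.1% down under PIC, 11.7% up and 12.2% down in LPS + TBHQ against LPS, and 15.8% up and 15.5% down in PIC + TBHQ against PIC. TBHQ alone raised 2 and lowered 4, and PIC against LPS raised 3 and lowered 1. The shares over all genes were 14.2% up and 14.8% down with TBHQ alone, and 14.9% up and 12.8% down in PIC against LPS. edgeR called 0 of the 9 in the difference between TBHQ effects, where 1 had an unadjusted p below 0.05.

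With a stimulus, genes of the G2/M phases ran opposite to *Cdkn1a*. All 19 genes of a list of G2/M genes, which p53 and p21 are known to lower through the DREAM complex, were lower with LPS (median -1.59) and with PIC (median -2.04), and 17 of them were lower with PIC than with LPS. In PIC against LPS 12.8% of all genes were lower and 14.9% higher. *Plk1*, a mitotic kinase, had 44.5, 41.8 and 41.1 FPKM in the control, 7.52, 7.73 and 8.36 FPKM with LPS and 5.46, 5.63 and 5.45 FPKM with PIC. After pre-treatment it had 13.1, 14.2 and 13.5 FPKM with LPS and 10.4, 9.70 and 10.4 FPKM with PIC, higher than without TBHQ yet far below the control. TBHQ pre-treatment raised 18 of the 19 with LPS (median 0.42) and 14 with PIC (median 0.21), and none was lower in edgeR, in which 18 and 16 had an unadjusted p below 0.05. Over all genes pre-treatment gave 11.7% higher and 12.2% lower with LPS, and 15.8% higher and 15.5% lower with PIC. *Plk1* rose by 0.79 ± 0.07 and 0.90 ± 0.08, and *Cdc20*, an activator of the anaphase complex, by 0.82 ± 0.07 and 0.86 ± 0.07. TBHQ alone raised 5 and lowered 1, at a median of 0.04, beside 14.2% higher and 14.8% lower over all genes. Over 12 cyclins, their kinases, *Pcna* and *Rb1*, LPS lowered 6 and raised 3, and PIC lowered 9 and raised 1, while over all genes 24.1% went down and 24.0% up under LPS, and 30.1% down and 28.6% up under PIC. *Ccna2* (cyclin A2) fell by -1.80 ± 0.06 and -2.33 ± 0.06 and *Ccnd1* (cyclin D1) by -0.79 ± 0.05 and -1.39 ± 0.05. Pre-treatment raised *Ccnd1* by 0.44 and 0.65, with 5 of the 12 higher and 1 lower with LPS and 5 higher and 4 lower with PIC. The shares over all genes were 11.7% up and 12.2% down with LPS, and 15.8% up and 15.5% down with PIC. TBHQ alone raised 2 of the 12, and PIC against LPS gave 1 higher and 8 lower. Over all genes 14.2% were higher and 14.8% lower with TBHQ alone, and 14.9% and 12.8% in PIC against LPS. Of the 12, edgeR called 0 in the difference between TBHQ effects, and 3 had an unadjusted p below 0.05.

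Other stress and immune genes were counted beside the p53 targets. Of all genes tested, 48.1% were called in either direction with LPS, 58.7% with PIC, 29.0% with TBHQ alone, 23.9% in LPS + TBHQ against LPS, 31.3% in PIC + TBHQ against PIC and 27.7% in PIC against LPS. Of 9 genes of the integrated stress response, which shares *Sesn2* and *Ddit4* with the wider p53 list, all were higher with LPS (median 0.96) and PIC (median 1.08), and 7 and 5 were lower after pre-treatment. *Atf3*, a stress-induced transcription factor, rose by 1.26 ± 0.04 and 1.78 ± 0.04 and fell by 0.58 and 0.79 with pre-treatment. TBHQ alone raised 1 and lowered 4, with *Ddit3* at -1.29, and PIC against LPS gave 5 higher and 2 lower. All 7 Nrf2 targets were higher with TBHQ alone (median 1.80), among them *Hmox1*, heme oxygenase, at 2.09 ± 0.04 and *Gclm*, of glutathione synthesis, at 1.82 ± 0.04. LPS raised 6 and PIC 5 of the 7, PIC against LPS gave 4 higher and 1 lower, and pre-treatment raised 6 and lowered 1 with either stimulus. All 10 inflammatory genes rose with LPS (median 2.74) and PIC (median 4.09), all 10 were higher with PIC than with LPS, and all 10 fell with pre-treatment (medians -0.86 and -1.04). With TBHQ alone 6 were higher and 3 lower. *Ptgs2*, which encodes COX-2, rose by 4.25 ± 0.06 with LPS and 5.80 ± 0.06 with PIC. Of the 8 macrophage markers 3 were higher and 3 lower with LPS, 4 and 3 with PIC, 3 and 4 in LPS + TBHQ against LPS, and 3 and 3 in PIC + TBHQ against PIC. TBHQ alone raised 1 and lowered 4 of them, and PIC against LPS raised 3 and lowered 3.

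The 8 genes did not all share one pattern over the 18 libraries. In log2 CPM, *Cdkn1a* and *Mdm2* had a Pearson r of 0.961 (n = 18 libraries in 6 conditions), as did *Mdm2* and *Btg2*, and *Plk2* and *Btg2* had 0.931. *Ccng1* was closer to *Trp53inp1* (0.838) than to *Plk2* (0.223), and *Trp53* and *Plk2* ran in opposite directions (-0.915). These values describe mostly the differences between conditions. Among 10444 genes with a mean of at least 50 counts, those most like *Plk2* were the chemokine genes *Ccl4* (r = 0.998, Spearman's rho = 0.965) and *Ccl3* (0.996 and 0.932) and *Sptlc2* (0.996 and 0.975). *Mdm2* was matched most closely by *Zfp36* (0.995 and 0.977), *Pcdh7* (0.991 and 0.969) and *Klf6* (0.990 and 0.963). For *Cdkn1a* they were *Vim* (0.973 and 0.942), *Carhsp1* (0.970 and 0.969) and *Flrt2* (0.965 and 0.946), and for *Btg2* *Il1a* (0.984 and 0.973), *Msr1* (0.982 and 0.963) and *Milr1* (0.982 and 0.983). The gene most like *Ccng1* was *Eda2r* (0.954 and 0.851), itself in the wider p53 list, followed by *Myo1e* (0.942 and 0.905) and *Gm37795* (0.942 and 0.889). *Trp53inp1* was nearest to *Egr1* (0.957 and 0.934), *Rgs1* (0.952 and 0.911) and *Psmc6* (0.931 and 0.893). *Trp53* was nearest to *Tubb4b* (0.975 and 0.955), *Igfbp4* (0.974 and 0.969) and the cyclin gene *Ccnb2* (0.963 and 0.884). Among the genes closest to *Gdf15* were *Pitpnm2* (0.879 and 0.911) and *Kics2* (0.819 and 0.794).

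Since 6 of the 8 genes rose with both stimuli and were lower after TBHQ pre-treatment, the sequence before their starts was searched for motifs. RefSeq gives promoters for 7 of the 8 genes, with 9 starts in all, on build GRCm38.p6. The 250 bases before each start were read on both strands for the p53 decamer (the unit of 10 bases that is repeated in a p53 response element), the AP-1 motif TGANTCA, the antioxidant response element core TGACNNNGC and the core of the interferon response element. Of 32851 mouse promoters of this length, 7.13% hold the p53 decamer, 6.75% the AP-1 motif, 10.2% the antioxidant core and 2.98% the interferon core. The p53 decamer was found before *Cdkn1a* (first start), *Mdm2*, *Ccng1* and *Trp53*. *Trp53* also held an antioxidant core, which overlaps no other motif, and *Plk2* an interferon core 219 to 210 bases before its start, while no motif was matched before *Btg2*, *Gdf15* or the second start of *Cdkn1a*. A match describes the letters only and is not a binding site. The windows of the 4 genes with a p53 decamer are printed 5′ to 3′ on the strand of the gene, with each matched motif in capitals. The *Cdkn1a* window is the last 100 bases before the first start, chr17:29090879-29090978 (+), with decamers 73 to 64 and 51 to 42 bases before it. The *Trp53* window is the last 150 bases, chr11:69580209-69580358 (+), with the antioxidant core 122 to 114 and the decamer 75 to 66 bases before the start. Those of *Mdm2*, chr10:117710759-117711008 (-), and *Ccng1*, chr11:40755287-40755536 (-), span 250 bases, with the decamer 186 to 177 and 185 to 176 bases before the start.
Cdkn1a: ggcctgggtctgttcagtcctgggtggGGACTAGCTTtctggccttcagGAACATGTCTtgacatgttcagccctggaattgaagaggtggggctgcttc
Trp53: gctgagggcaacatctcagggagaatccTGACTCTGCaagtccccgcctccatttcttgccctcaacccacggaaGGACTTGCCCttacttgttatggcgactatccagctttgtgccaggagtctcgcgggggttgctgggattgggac
Mdm2: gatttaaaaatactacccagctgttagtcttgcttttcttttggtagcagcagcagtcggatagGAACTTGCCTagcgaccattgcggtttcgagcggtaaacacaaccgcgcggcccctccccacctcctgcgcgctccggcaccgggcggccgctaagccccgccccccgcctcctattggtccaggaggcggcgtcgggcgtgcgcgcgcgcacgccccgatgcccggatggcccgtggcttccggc
Ccng1: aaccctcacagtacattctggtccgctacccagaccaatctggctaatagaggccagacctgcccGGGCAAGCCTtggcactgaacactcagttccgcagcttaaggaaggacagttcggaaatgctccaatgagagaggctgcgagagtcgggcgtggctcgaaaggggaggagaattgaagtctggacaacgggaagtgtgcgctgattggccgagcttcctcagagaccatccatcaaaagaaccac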

How the data were processed

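The 18 RNA libraries of RAW 264.7 cells fall into 6 conditions of 3 libraries. The authors deposited raw counts (unit: count, fragments per gene) and FPKM values, made per the submitters' notes with HISAT2 2.0.5, StringTie 1.3.3b and featureCounts 1.5.0-p3. The deposited FPKM equal counts divided by the gene length (in bases, listed by the authors) and the library total, times a constant for each library of 0.943 to 1.12. The submitters name the genome as GRCm38 and mm39 together, which are different builds. Of 52073 identifiers shared with GENCODE M21 on GRCm38, 1485 have the same start, so gene positions are those of the deposited files and only the promoter windows are on GRCm38.p6.

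Counts were tested in R 4.3.3 with edgeR 4.0.16: filterByExpr, TMM normalization, and a quasi-likelihood fit of all 18 libraries (a coefficient for each condition, common dispersion 0.00192). Benjamini-Hochberg adjustment ran over the 13691 genes tested. The SE is the log2FC divided by the root of the F statistic. No pairing of replicate numbers is stated, and none was assumed. Of the 56748 genes, 27701 had a count. The fits were tested on simulated data.

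The 8 genes and all gene lists were chosen with earlier results of these data known. The 8 genes are named in every comparison. From each list up to 4 genes per comparison are named, by the largest absolute log2FC among those called with a mean of at least 50 counts, and for each of the 8 genes the 3 genes with the highest Pearson correlation over the 18 libraries in log2 CPM (prior count 2). Shared sequence was counted in words of 50 bases against GENCODE M21.

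The alternatives were DESeq2 1.42.0, edgeR on the compared conditions only, RLE or total library size normalization, omitting the filter, requiring a mean of 50 counts or more, the replicate number as a block, limma 3.58.1 on log2(FPKM + 1) and log2(FPKM + 0.1), stricter thresholds (FDR below 0.01 with an absolute log2FC above 2, and FDR below 0.05 with one above 1), and leaving out each library. Tables and figures were made with matplotlib 3.10.9, scipy 1.17.1, numpy 2.4.6 and pandas 2.3.3 in Python 3.11.15. Protein and functional assays of the study were not used. Some genes are not reported here.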

Additional observations from a re-analysis of the deposited data

Results flagged for a closer look

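The values below are differences between the effects of TBHQ in cells under different stimulation, each from the test of the difference itself in edgeR at an FDR below 0.05. For TBHQ with PIC minus TBHQ with LPS none of the 8 genes passed in edgeR, in which 2 had an unadjusted p below 0.05, while DESeq2 called 1, *Mdm2*. Among the genes of the other lists the log2 difference was -0.32 for *Mki67*, -0.21 for *Atf3*, 0.28 for *Ddit3* and -0.31 for *Slc7a11*. It was -0.42 for *Ptgs2*, -0.58 for *Tnf*, -0.54 for *Cxcl2*, 0.54 for *Ifit1*, -0.27 for *Nfkbia* and -0.21 for *Ptprc*.

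For TBHQ with LPS minus TBHQ alone, a contrast chosen after the data had been seen, the difference was -1.37 for *Cdkn1a*, -0.99 for *Mdm2*, -0.57 for *Ccng1*, -0.19 for *Plk2* and -0.41 for *Btg2*. In the wider list of p53 targets it was -1.17 for *Fas*, -1.61 for *Phlda3*, -1.91 for *Eda2r* and -1.55 for *Ddit4*. For TBHQ with PIC minus TBHQ alone, chosen in the same way, it was -1.48 for *Cdkn1a*, -1.15 for *Mdm2*, -0.52 for *Ccng1*, -0.98 for *Trp53inp1*, -0.30 for *Plk2* and -0.43 for *Btg2*. The wider targets gave -1.12 for *Fas*, -1.58 for *Phlda3*, -1.88 for *Eda2r* and -1.19 for *Ddit4*. Among the other lists, 6 of 7 Nrf2 targets were lower with LPS and with PIC (median -1.01 in both, *Hmox1* -2.39 and -2.26). Of 10 inflammatory genes 9 were lower with each (medians -1.25 and -1.52, *Ptgs2* -2.04 and -2.47). Of 19 G2/M genes 17 were higher with LPS and 11 with PIC. Over all genes 9.33% were lower and 9.14% higher in the contrast with LPS. In that with PIC 12.5% were lower and 13.3% higher. TBHQ alone was harvested at 4 h, and the stimulated cells 12 h later than that.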

How the results depend on the processing

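Of 2363 values of the 8 genes under other settings, 2291 kept their direction and side of the threshold, 39 lost the call, 10 gained one and 23 changed sign. Stricter thresholds moved the counts most. Calls at an FDR below 0.01 and an absolute log2FC above 2 were not counted for pre-treated cells against control. In the other comparisons none of the 8 genes was called except 2 in PIC against control. In the wider list 1 was called with LPS, 2 with PIC and 0 in the rest of these comparisons. Of the 13691 genes tested, this threshold called 26 with TBHQ alone, 224 with LPS, 489 with PIC and 42 in PIC against LPS. It called 53 in LPS + TBHQ against LPS and 41 in PIC + TBHQ against PIC. The difference of TBHQ effects between PIC and LPS gave 0. The TBHQ effects minus that alone gave 40 with LPS and 49 with PIC. *Plk2* in PIC + TBHQ against control lay past this threshold, at 2.33 ± 0.04 (edgeR, FDR = 3.2e-32). With FDR below 0.05 and an absolute log2FC above 1, of the 8 genes 0 were called with TBHQ alone, 3 with LPS, 5 with PIC, 1 in LPS + TBHQ against LPS, 3 in PIC + TBHQ against PIC and 0 in PIC against LPS, and in the TBHQ effects minus that alone 1 with LPS and 2 with PIC. The wider list then gave 0, 6, 7, 3, 3, 1, 4 and 4 in the same order. At this second threshold the share over all genes was not counted. DESeq2 called 1 gene, *Mdm2*, in the difference of TBHQ effects between PIC and LPS, and leaving out single libraries gave 0 to 1, with 1 without PIC 3. For TBHQ with LPS minus alone that range was 3 to 5 of the 8 genes (3 without control 2 or LPS 1), and for TBHQ with PIC minus alone 11 to 17 of the wider list (11 without TBHQ 2).

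The sign changes concern estimates near 0 that were not called. *Trp53* in PIC against LPS was -0.087 with total library size. *Trp53* in TBHQ with PIC minus alone was -0.008 with DESeq2, -0.010 with RLE, -0.014 with a mean of at least 50 counts, -0.004 with limma on log2(FPKM + 1) and on log2(FPKM + 0.1), and -0.028 to 0.038 without single libraries. *Btg2* in the difference between PIC and LPS was 0.019 with total library size and -0.109 to 0.021 without single libraries (0.007 without LPS 2). Leaving out single libraries gave -0.010 to 0.085 for *Ccng1* with TBHQ alone, -0.027 to 0.009 for *Ccng1* in PIC against LPS, -0.072 to 0.021 for *Plk2* with TBHQ alone, -0.575 to 0.050 for *Gdf15* with PIC, and -0.053 to 0.572 for *Gdf15* in TBHQ with PIC minus alone. The cause was not tested. Using the replicate number as a block left the counts of the 8 genes at 4 with TBHQ alone, 7 with LPS, with PIC and in both pre-treatment comparisons, and 4 in PIC against LPS, and deviations of libraries with the same number correlated at -0.0444 to 0.0645. Depth limits *Gdf15*, with 9 to 40 counts per library, and *Trp53inp1*.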
